A study of Mus with 2 samples.

Results

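Brown adipocytes can spend ATP without uncoupling protein 1 (UCP1), and 9 genes of the creatine and calcium cycles that do so were followed here across the nuclei of interscapular brown adipose tissue (iBAT). They are named members of these cycles among the 32285 genes of the files, chosen with earlier results of these data known: *Ckb*, *Ckmt2*, *Slc6a8*, *Gatm*, *Gamt* and *Alpl* of creatine metabolism, and *Atp2a1*, *Atp2a2* and *Ryr2* of calcium cycling. They were measured by snRNA-seq in droplets as unique molecular identifiers (UMIs), each of which stands for 1 captured RNA molecule of 1 nucleus. A *Wtap* flox/flox library came from C57BL/6 mice that carry a floxed *Wtap* exon and no Cre, and a *Wtap*-BKO library came from mice with the same alleles and *Ucp1*-iCre, both fed normal chow and taken at 8 weeks of age. WTAP is a regulatory protein of the m6A mRNA methyltransferase complex. Nuclei of 4 mice were pooled in each of the 2 libraries, so each genotype had 1 library, the mice cannot be separated, and no difference between the libraries has a replicate check or a test. The iCre was inserted behind an IRES at the *Ucp1* gene itself, so the effect of *Wtap* deletion, the presence of iCre and the modified *Ucp1* allele cannot be told apart.

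In the creatine cycle, creatine is phosphorylated at the expense of ATP by creatine kinases, and phosphocreatine is hydrolysed again by a phosphatase, so that energy leaves as heat. Creatine is made by GATM and GAMT, which act in sequence, and is taken up through the transporter encoded by *Slc6a8*. In the calcium cycle, SERCA pumps encoded by *Atp2a1* and *Atp2a2* move calcium into the endoplasmic or sarcoplasmic reticulum at the cost of ATP, and release channels such as the ryanodine receptor RYR2 let it out. Both cycles are known for UCP1-independent heat production in beige and brown fat.

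In *Wtap* flox/flox, 10770604 UMIs came from 9494 nuclei (median 954 per nucleus), and in the *Wtap*-BKO-labelled library 13945673 UMIs came from 8772 nuclei (median 1306). Mitochondrially encoded genes took 7.6% and 11.7% of the UMIs, and 33.0% and 74.8% of the nuclei had over 5% mitochondrial UMIs. The nuclei formed 13 clusters, of which 5 were adipocyte-like, with 6752 *Wtap* flox/flox nuclei and 4952 nuclei labelled *Wtap*-BKO. All 12 adipocyte markers, such as *Adipoq* and *Plin1*, also had UMIs in the other nuclei, at 46.3% and 33.4% of their summed adipocyte-like level, so part of any adipocyte RNA outside adipocyte-like nuclei can be free RNA. *Wtap* itself, the targeted gene, had 50.4 CPM (counts scaled to the total UMIs of a class) in adipocyte-like nuclei of *Wtap* flox/flox (383 UMIs) and 48.3 CPM in those labelled *Wtap*-BKO (404 UMIs), with a log2 ratio of -0.06 (95% interval -0.27 to 0.14). The deletion therefore did not show in the amount of *Wtap* RNA. UMIs are counted near the 3′ end and can lie outside the floxed exon, so this does not check the genotype, and the library is named by its label throughout. *Ucp1* had 151 and 258 CPM in the same nuclei, and 172 and 82.2 CPM in the non-adipocyte nuclei. Its counts thus did not set adipocyte-like nuclei apart in *Wtap* flox/flox. The study reported much less UCP1 protein in iBAT of *Wtap*-BKO mice by immunoblotting, a measure unlike the RNA of nuclei. The libraries shared 20 cell barcodes, and leaving these nuclei out moved neither the *Wtap* ratio nor those of the 9 genes in adipocyte-like and non-adipocyte nuclei by as much as their counting error. Values of single classes and clusters were not recomputed without them.

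A level is given as CPM of all UMIs of a class of nuclei with an exact Poisson 95% interval, a difference as the log2 ratio of the *Wtap*-BKO-labelled to the *Wtap* flox/flox level with an exact conditional 95% interval, and a share with an exact (Clopper-Pearson) interval. All intervals hold counting error alone and leave out how mice vary. Levels are compared between classes and libraries for 1 gene at a time, never between genes, because the counts are not per length.

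*Ckb*, the cytosolic creatine kinase of the creatine cycle, at chr12:111669355-111672338 (GRCm38.p6), was not an adipocyte-enriched gene in either library. Its level in *Wtap* flox/flox was 21.5 CPM in adipocyte-like nuclei (163 UMIs, interval 18.3 to 25) and 31.5 CPM in the non-adipocyte nuclei (100 UMIs, 25.7 to 38.3). In the *Wtap*-BKO-labelled library, adipocyte-like nuclei had 15.5 CPM (130 UMIs, 13 to 18.5) and non-adipocyte nuclei had 53.2 CPM (297 UMIs, 47.3 to 59.6). *Ckb* was thus lower in adipocyte-like than in pooled other nuclei of both libraries, by a log2 ratio of -0.56 (-0.92 to -0.18) and -1.78 (-2.08 to -1.47). By single class this did not hold throughout in *Wtap* flox/flox, where the adipocyte-like log2 ratio was 0.16 (-0.76 to 1.25) to pericyte-like, -0.47 (-0.97 to 0.05) to endothelial-like and -0.28 (-1.30 to 0.95) to fibroblast-like nuclei.

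Macrophage-like nuclei had 91.6 CPM of *Ckb* from 173 UMIs (78.5 to 106) in the *Wtap*-BKO-labelled library, the top of its order of classes, against 52.5 CPM from 17 UMIs in *Wtap* flox/flox, a log2 ratio of 0.80 (0.08 to 1.62). Of the 173 UMIs, 10 came from 1 nucleus. With each nucleus thinned to 1000 UMIs, 4.88% (1.81 to 10.3) and 6.98% (5.28 to 9.01) of macrophage-like nuclei had a *Ckb* UMI in *Wtap* flox/flox and the *Wtap*-BKO-labelled library. These intervals overlapped. Pericyte-like nuclei had 19.2 CPM (10 UMIs) in *Wtap* flox/flox and 67.1 CPM (21 UMIs, 41.5 to 103, overlapping the macrophage-like interval) in the *Wtap*-BKO-labelled library, with a log2 ratio of 1.80 (0.65 to 3.05). Endothelial-like nuclei had 29.8 and 27.5 CPM, fibroblast-like nuclei 26.1 and 34.6 CPM, and T cell-like nuclei 27.5 and 20.5 CPM, and the intervals of all 3 ratios held 0. Schwann-like nuclei, first in the order of *Wtap* flox/flox, had 60.7 and 65.5 CPM from 5 and 11 UMIs, a log2 ratio of 0.11 (-1.53 to 1.99). The endothelial-like nuclei lay in 3 finer clusters of unequal size in the libraries, with 354 and 566, 536 and 125, and 263 and 86 nuclei, and *Ckb* ratios there of 0.26, 0.63 and -1.16 also had intervals that held 0. With a finer clustering, the immune nuclei of the libraries were made up differently. A macrophage-like cluster led by *Ms4a7*, *Cd163* and *Mrc1* had 246 and 665 nuclei, with *Ckb* at 44.5 CPM (12 UMIs) and 85.2 CPM (85 UMIs), a log2 ratio of 0.94 (0.06 to 1.95). Of these 85 UMIs, 10 came from 1 nucleus. A macrophage-like cluster led by *Sirpb1c*, *Slfn4* and *Ly6i* had 11 and 304 nuclei, with 221 CPM (2 UMIs) and 72.0 CPM (39 UMIs), a log2 ratio of -1.62 (-3.57 to 1.48). A dendritic-like cluster had 44 and 208 nuclei, with 85.8 CPM (4 UMIs) and 139 CPM (49 UMIs), a log2 ratio of 0.70 (-0.75 to 2.63). A T cell-like cluster led by *Themis* and *Skap1* had 22 and 487 nuclei. Another cluster named T cell-like, led by *Igha*, *Jchain* and *Igkc*, had 98 and 259 nuclei. T cell-like levels therefore compare unlike mixtures of immune nuclei between the libraries. Macrophage-like nuclei made up 3.16% of *Wtap* flox/flox and 13.4% of *Wtap*-BKO-labelled nuclei, and they held 6.46% and 40.5% of all *Ckb* UMIs. The share of *Ckb* UMIs in adipocyte-like nuclei was 62.0% and 30.4%. Summed over all nuclei, *Ckb* was at 24.4 and 30.6 CPM, a log2 ratio of 0.33 (0.10 to 0.55). In such a sum, a different number of cells of a type and a different amount of RNA per cell cannot be told apart.

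**Figure D1:**
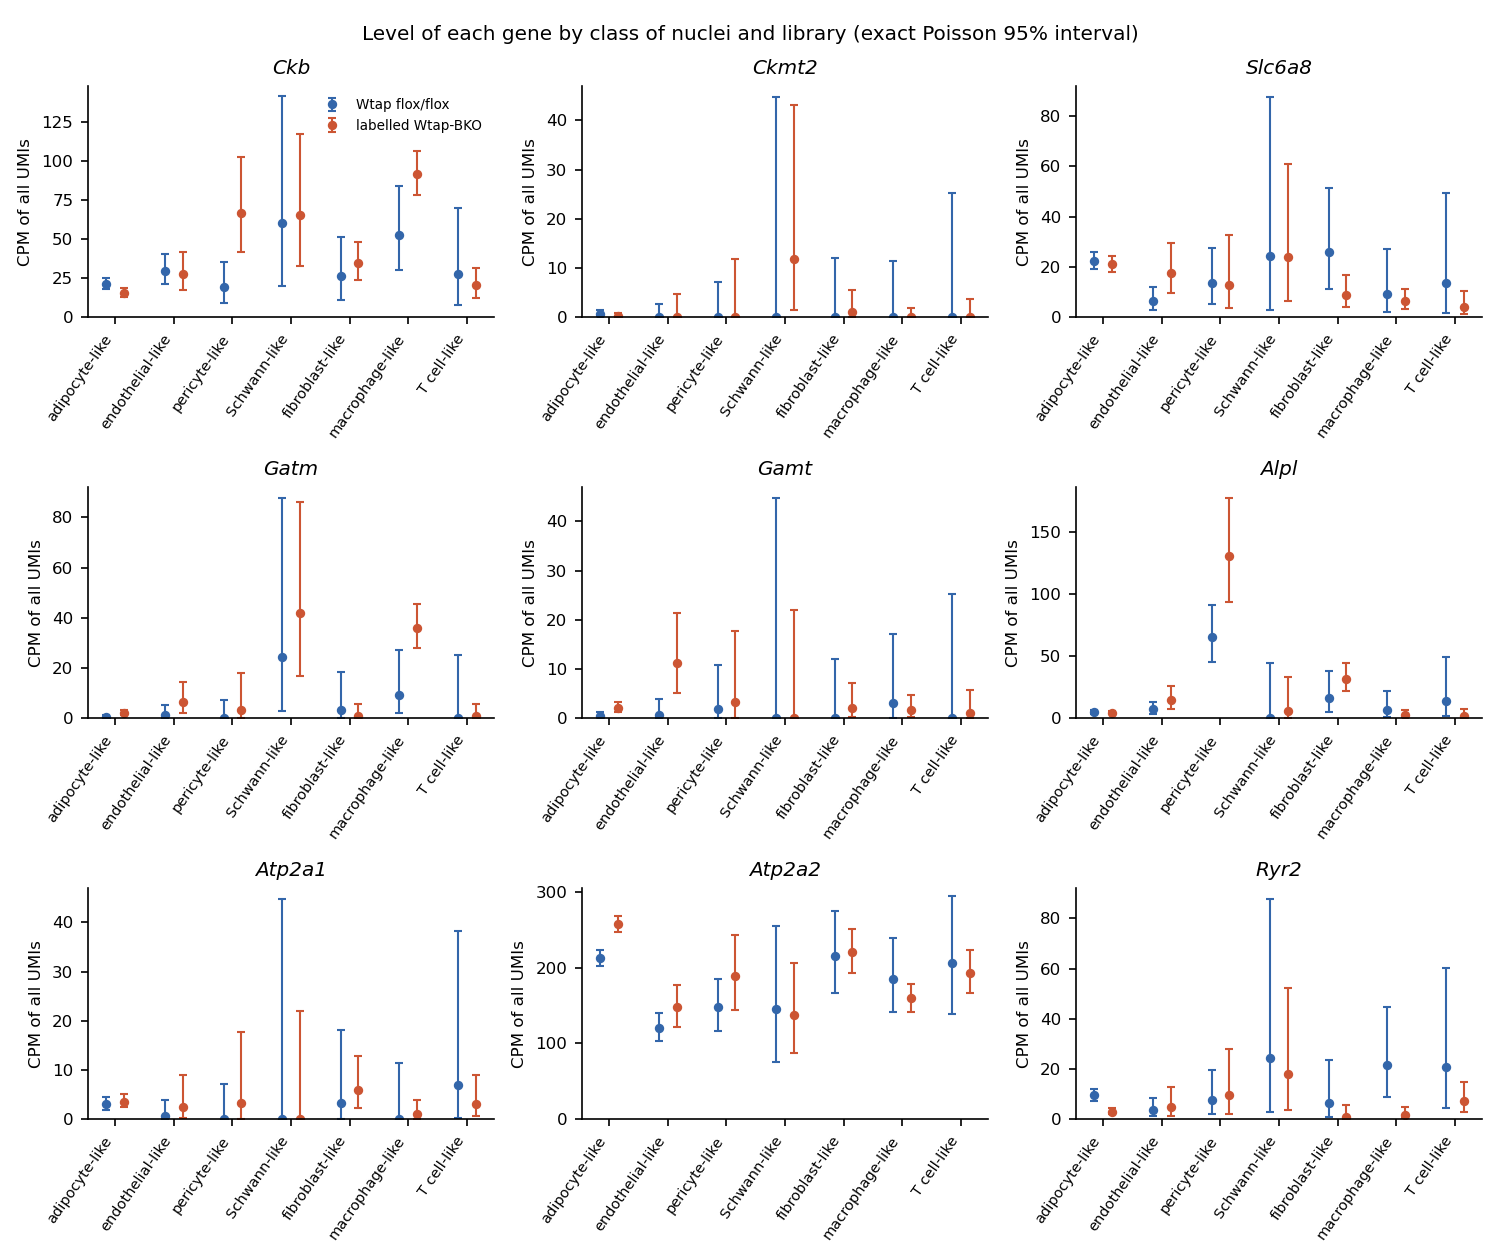
Level of each of the 9 genes (CPM of all UMIs, vertical axis) in the 7 named classes of nuclei (horizontal axis), in *Wtap* flox/flox (blue) and in the *Wtap*-BKO-labelled library (orange), with points for the level and bars for the exact Poisson 95% interval. *Ckb* and *Gatm* were high in macrophage-like nuclei labelled *Wtap*-BKO (91.6 and 36.0 CPM), *Alpl* in pericyte-like nuclei (65.3 and 131 CPM), and *Atp2a2* was spread over all classes. Each panel has its own scale.

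*Slc6a8*, the creatine transporter, at chrX:73673133-73682502, was higher in adipocyte-like nuclei than in the pooled non-adipocyte nuclei. It had 22.2 CPM in adipocyte-like nuclei of *Wtap* flox/flox (169 UMIs, 19.0 to 25.9) and 21.0 CPM in those labelled *Wtap*-BKO (176 UMIs, 18.0 to 24.4). The non-adipocyte nuclei had 10.4 CPM (33 UMIs) and 9.14 CPM (51 UMIs), so that the log2 ratio of adipocyte-like over non-adipocyte nuclei was 1.10 (0.55 to 1.68) and 1.2 (0.75 to 1.68). By single class this did not hold throughout. In *Wtap* flox/flox, fibroblast-like nuclei had 26.1 CPM (8 UMIs) and the adipocyte-like log2 ratio to them was -0.23 (-1.24 to 1). In the *Wtap*-BKO-labelled library, the ratio to endothelial-like nuclei (17.5 CPM, 14 UMIs) was 0.27 (-0.52 to 1.17), and Schwann-like nuclei had 24.3 and 23.8 CPM from 2 and 4 UMIs. Its level in macrophage- and T cell-like nuclei together was 47.9% and 26.5% of the adipocyte-like level, beside 53.5% and 32.3% for the adipocyte markers in these nuclei, and free adipocyte RNA as the source of these UMIs was not tested. Between the libraries, *Slc6a8* in adipocyte-like nuclei had a log2 ratio of -0.08, with an interval from -0.39 to 0.23. Its sign turned with mitochondrial UMIs out of the denominator (0.03), so no direction is given. The gene overlaps the long non-coding RNA Gm32261, and strand-specific counting is not given in the sources used here.

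The enzymes of creatine synthesis were rare. *Gatm*, the first enzyme, at chr2:122594473-122611277, had 13 UMIs in all *Wtap* flox/flox nuclei and 100 in the *Wtap*-BKO-labelled ones, 1.21 and 7.17 CPM. Of the 100 UMIs, 68 lay in macrophage-like nuclei, where the level was 36.0 CPM against 9.26 CPM (3 UMIs) in *Wtap* flox/flox, a log2 ratio of 1.96 (0.35 to 4.27). Schwann-like nuclei had 24.3 and 41.7 CPM, from 2 and 7 UMIs. Adipocyte-like nuclei held 4 and 16 *Gatm* UMIs, 0.526 and 1.91 CPM, a log2 ratio of 1.86 (0.23 to 3.90). These adipocyte-like levels were 5.68% and 5.31% of those in macrophage-like nuclei of the same library, while the 7 macrophage markers stood in adipocyte-like nuclei at 2.14% and 4.15% of their own macrophage-like level, and free RNA as the source was not tested.

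*Gamt*, the second enzyme, at chr10:80258151-80261025, had 8 and 35 UMIs in all, of which 4 and 17 lay in adipocyte-like nuclei (0.526 and 2.03 CPM, log2 ratio 1.95, 0.33 to 3.98). Endothelial-like nuclei held 1 and 9 UMIs, 0.709 and 11.2 CPM. Adipocyte-like nuclei of the *Wtap*-BKO-labelled library were below endothelial-like nuclei by a log2 ratio of -2.47 (-3.71 to -1.12). In *Wtap* flox/flox, with 8 *Gamt* UMIs in all, no interval of a ratio between adipocyte-like nuclei and another class left out 0.

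*Alpl*, which encodes the tissue-nonspecific alkaline phosphatase that can hydrolyse phosphocreatine, at chr4:137741731-137796384, had its highest level in pericyte-like nuclei. Pericyte-like nuclei had 65.3 CPM in *Wtap* flox/flox (34 UMIs, 45.3 to 91.3) and 131 CPM in the *Wtap*-BKO-labelled library (41 UMIs, 94.0 to 178), and the log2 ratio was 1 (0.31 to 1.70). Adipocyte-like nuclei had 4.61 CPM (35 UMIs, 3.21 to 6.41) and 4.42 CPM (37 UMIs, 3.11 to 6.10). The adipocyte-like level was below the pericyte-like level by a log2 ratio of -3.83 (-4.55 to -3.10) in *Wtap* flox/flox and -4.89 (-5.57 to -4.21) in the *Wtap*-BKO-labelled library. Fibroblast-like nuclei came next with 16.3 CPM (5 UMIs) and 31.6 CPM (32 UMIs). After each nucleus was thinned to 1000 UMIs, 5% and 10.4% of pericyte-like nuclei had an *Alpl* UMI, against 0.365% (interval 0.189 to 0.636) and 0.390% (0.218 to 0.642) of adipocyte-like nuclei. In macrophage- and T cell-like nuclei the thinned share was 0.543% (0.0138 to 2.99, 1 nucleus of 184) and 0.352% (0.0959 to 0.898, 4 of 1137), and these intervals overlapped those of adipocyte-like nuclei. Between the libraries, the adipocyte-like log2 ratio of *Alpl* was -0.06 (-0.77 to 0.65), and it was 0.73 (-0.31 to 1.72) once nuclei past 5% mitochondrial UMIs were left out.

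*Ckmt2*, a mitochondrial creatine kinase of striated muscle, at chr13:91853386-91876923, had 5 UMIs in each library. Adipocyte-like nuclei held 5 of them in *Wtap* flox/flox and 2 in the *Wtap*-BKO-labelled library. No level of *Ckmt2* could be compared at this depth.

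*Atp2a2*, which encodes SERCA2 and lies at chr5:122453513-122502225, was the most widely detected of the 9 genes. Adipocyte-like nuclei had 212 CPM in *Wtap* flox/flox (1613 UMIs, 202 to 223) and 257 CPM in those labelled *Wtap*-BKO (2150 UMIs, 246 to 268), and the log2 ratio was 0.28 (0.18 to 0.37). Non-adipocyte nuclei had 144 CPM (457 UMIs) and 171 CPM (952 UMIs), a log2 ratio of 0.24 (0.08 to 0.41), which was -0.062 once nuclei with over 5% mitochondrial UMIs were removed and 0 under median-of-ratios scaling. The level in adipocyte-like nuclei exceeded that of non-adipocyte nuclei by a log2 ratio of 0.56 (0.41 to 0.71) and 0.59 (0.48 to 0.70). Fibroblast-like nuclei had about the same level as adipocyte-like nuclei in *Wtap* flox/flox, 215 and 212 CPM. In macrophage-like nuclei *Atp2a2* was at 185 and 159 CPM, in T cell-like nuclei at 206 and 193 CPM, and in endothelial-like nuclei at 121 and 147 CPM. After thinning to 1000 UMIs, 19.8% (18.4 to 21.2) and 21.8% (20.5 to 23.1) of adipocyte-like nuclei had an *Atp2a2* UMI, and 17.9% and 15.3% of macrophage- and T cell-like nuclei did. Without thinning the adipocyte-like shares were 20.2% and 31.5%, at a median of 989 and 1473.5 UMIs per adipocyte-like nucleus, and 892 and 1140.5 UMIs in macrophage- and T cell-like nuclei.

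*Atp2a1*, which encodes SERCA1, the pump of fast muscle fibres, lies at chr7:126445858-126463103, where the annotation overlaps *Rabep2*. Adipocyte-like nuclei held 23 UMIs in *Wtap* flox/flox and 30 in the *Wtap*-BKO-labelled library, 3.03 and 3.59 CPM, with a log2 ratio of 0.24 (-0.59 to 1.09). Without nuclei past 5% mitochondrial UMIs it was -0.64 (-3.07 to 1.18), from 15 and 3 UMIs, so no direction is given. Non-adipocyte nuclei held 3 and 17 UMIs, and 6 of the 17 lay in 1 fibroblast-like nucleus. Of 12 skeletal muscle genes, such as *Acta1* and *Ttn*, 3 or more had UMIs in 5 nuclei labelled *Wtap*-BKO and in 0 *Wtap* flox/flox nuclei. These 5 nuclei carried 7 of the 47 *Atp2a1* UMIs and 1 of the 5 *Ckmt2* UMIs of their library, and 0 UMIs of the other 7 genes. Without them, the log2 ratio of *Atp2a1* in non-adipocyte nuclei was 1.06 in place of 1.69, and in adipocyte-like nuclei it was 0.20. All muscle genes together had 24.6 and 51.8 CPM over all nuclei, with 10 of 12 and 11 of 12 of them detected, and 243 of the UMIs labelled *Wtap*-BKO came from 1 nucleus. Pericyte-like nuclei held 82 of the 126 *Neb* UMIs of *Wtap* flox/flox (158 CPM) and 35 of the 142 labelled *Wtap*-BKO (112 CPM). The sum is therefore not read as muscle RNA alone. *Myh2* was at 0 in the *Wtap*-BKO-labelled library, and *Myh4* and *Myh7* were at 0 in *Wtap* flox/flox.

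*Ryr2*, the calcium release channel, at chr13:11553099-12106945, was the member that was lower by at least 1.5-fold in the *Wtap*-BKO-labelled library. Adipocyte-like nuclei had 9.48 CPM in *Wtap* flox/flox (72 UMIs, 7.41 to 11.9) and 2.99 CPM in those labelled *Wtap*-BKO (25 UMIs, 1.93 to 4.41), a log2 ratio of -1.66 (-2.38 to -0.99). Other nuclei were lower too. Non-adipocyte nuclei as a whole had 8.2 CPM (26 UMIs) and 3.94 CPM (22 UMIs), a log2 ratio of -1.06 (-1.94 to -0.18). Without nuclei past 5% mitochondrial UMIs, the ratio was -2.51 (-4.84 to -0.89) in adipocyte-like nuclei, from 55 and 3 UMIs, and -2.81 (-5.24 to -0.99) in non-adipocyte nuclei, from 15 and 3 UMIs. The macrophage- and T cell-like nuclei had 21.3 CPM (10 UMIs) and 3.49 CPM (10 UMIs), a log2 ratio of -2.61 (-4.03 to -1.19). By class it was -3.77 (-6.35 to -1.63) in macrophage-like nuclei, from 7 and 3 UMIs. In T cell-like nuclei it was -1.52 (-3.66 to 1.06), from 3 and 7 UMIs. Endothelial-like nuclei had 5 and 4 UMIs, with a log2 ratio of 0.50 (-1.84 to 2.71). In *Wtap* flox/flox, adipocyte-like nuclei had less *Ryr2* than macrophage- and T cell-like nuclei, by a log2 ratio of -1.17 (-2.13 to -0.05). The thinned share of adipocyte-like nuclei with a *Ryr2* UMI was 0.821% (0.542 to 1.19) and 0.234% (0.107 to 0.444), and that of macrophage- and T cell-like nuclei was 1.63% (0.338 to 4.69) and 0.352% (0.0959 to 0.898). The intervals of the adipocyte-like and immune shares overlapped in both libraries. Thinned to 500 UMIs, the adipocyte-like shares were 0.355% (0.228 to 0.528) and 0.242% (0.125 to 0.423), and their intervals overlapped.

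The members were set against all genes. A gene was called at a change of at least 1.5-fold among genes with 20 or more UMIs in both libraries together, and 8 of the 9 genes met this minimum in adipocyte-like nuclei (*Ckmt2* did not). Of these 8, *Gatm* and *Gamt* were higher in the *Wtap*-BKO-labelled library and *Ryr2* was lower. *Gatm* (4 and 16 UMIs) and *Gamt* (4 and 17 UMIs) met the minimum only through the library where they were high, so the minimum favoured these calls. Over all 14094 genes with as many UMIs, 25.3% were higher and 12.2% lower, 37.5% in either direction, and the 3 calls among 8 genes were near this background. The median log2 ratio was 0.09 over the 8 genes and 0.07 over all genes. In non-adipocyte nuclei *Ckb*, *Gatm*, *Gamt* and *Atp2a1* were higher and *Ryr2* was lower, 5 of 8 genes beside 36.3% and 7.66% of 13986 genes (44.0% in either direction). There *Gamt* (4 and 18 UMIs) and *Atp2a1* (3 and 17 UMIs) met the minimum in the same way. Of the 17 *Atp2a1* UMIs, 6 lay in 1 nucleus, and without them the gene fell below the minimum. The *Ckb* ratio was within 1.5-fold once nuclei past 5% mitochondrial UMIs were taken out, as given below. The median in non-adipocyte nuclei was 0.50 over the 8 genes and 0.34 over all genes.

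**Figure D2:**
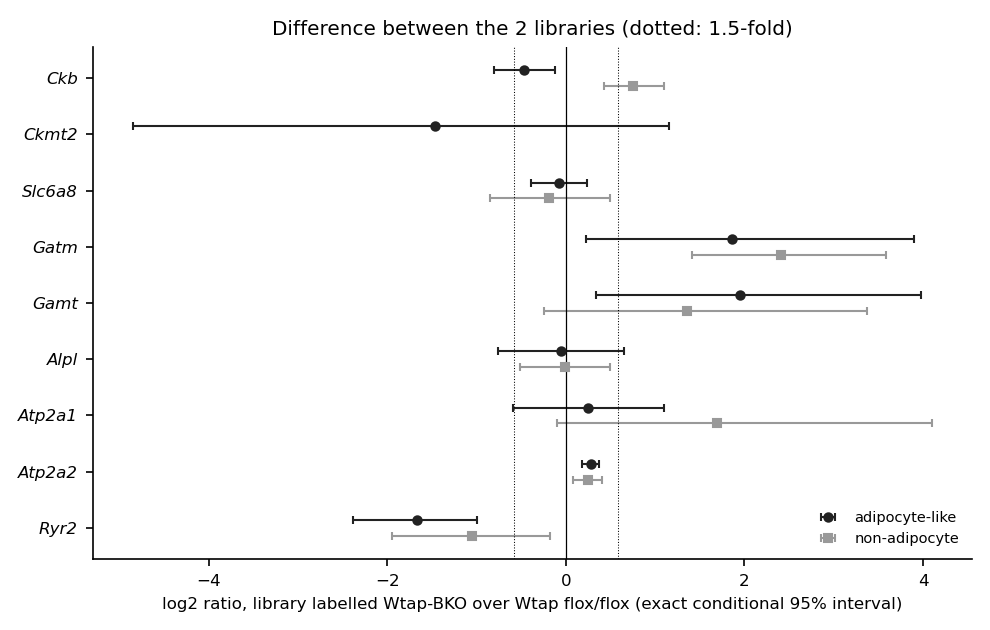
Log2 ratio of the *Wtap*-BKO-labelled to the *Wtap* flox/flox level (horizontal axis) for each gene, in adipocyte-like nuclei (black circles) and non-adipocyte nuclei (grey squares), with exact conditional 95% intervals as bars and dotted lines at 1.5-fold. *Ckb* lay at -0.46 in adipocyte-like and 0.76 in non-adipocyte nuclei, *Ryr2* was below 0 in both, and *Ckmt2* in non-adipocyte nuclei (0 and 3 UMIs) is not drawn.

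*Ckb* was the gene whose ratios had opposite signs with intervals that left out 0. It was lower in adipocyte-like nuclei labelled *Wtap*-BKO, with a log2 ratio of -0.46 (-0.81 to -0.12), and higher in non-adipocyte nuclei, with 0.76 (0.42 to 1.10). The first value stayed between -0.67 and -0.35 under every alternative tried. The second was 0.14 (-0.45 to 0.75) once nuclei past 5% mitochondrial UMIs were taken out. After thinning to 1000 UMIs, the share of adipocyte-like nuclei with a *Ckb* UMI was 1.76% (1.34 to 2.27) and 1.56% (1.19 to 2), against 4.89% (2.26 to 9.08) and 5.28% (4.05 to 6.74) of the immune nuclei of these classes. The shares of adipocyte-like nuclei in the 2 libraries were therefore not distinguishable at this depth, and macrophage- and T cell-like nuclei had the larger share in both.

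Adipocyte subtypes differed in size between the libraries, so the genes were also read within the 5 adipocyte-like clusters. The clusters were led by *Ttn*, *Zfp641* and *Cpt1b* (cluster 0), by *Lncbate10*, *Ppargc1a* and *Adra1a* (cluster 1), by mitochondrially encoded genes (cluster 2), by *Slc7a10*, *Cyp2e1* and *Retn* (cluster 8) and by interferon-induced genes such as *Iigp1* and *Ifit1* (cluster 10). *Ttn* had 37 and 247 UMIs in all adipocyte-like nuclei, and 212 of the 247 came from 1 nucleus. It is therefore not read as a marker of cluster 0. *Atp2a2* had its highest level in cluster 1, with 235 CPM in *Wtap* flox/flox and 319 CPM in the *Wtap*-BKO-labelled library. The log2 ratio of *Atp2a2* was 0.42, 0.44, 0.32 and 0.61 in clusters 0, 1, 2 and 10, each with an interval above 0. In cluster 8 it was -0.26 (-0.71 to 0.21), from 186 and 155 CPM. *Ucp1* had log2 ratios of 0.96, 1.33, 0.18 and 0.45 in clusters 0, 1, 2 and 10 and -0.91 in cluster 8, and the intervals held 0 in clusters 2 and 10.

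*Ryr2* was lower in the *Wtap*-BKO-labelled library in all 5 clusters, with log2 ratios of -1.55 (-3.14 to -0.20) in cluster 0 and -1.84 (-3.15 to -0.72) in cluster 1, and with intervals that held 0 in the other 3, where it had at most 8 UMIs per library. *Ckb* had log2 ratios of -0.42 (-1.11 to 0.25) in cluster 0, -0.93 (-1.57 to -0.32) in cluster 1 0.12 (-0.63 to 0.91) in cluster 2, 0.64 (-1.12 to 3.04) in cluster 8 and -1.19 (-3.55 to 1.5) in cluster 10. In cluster 1 its level was 21.5 CPM (81 UMIs) in *Wtap* flox/flox and 11.3 CPM (32 UMIs) in the *Wtap*-BKO-labelled library. *Slc6a8* ran from 10.7 to 28.9 CPM over the clusters of *Wtap* flox/flox and from 7.94 to 25.7 CPM over those labelled *Wtap*-BKO, with the lowest level in cluster 8 in both. No interval of its ratios left out 0. *Alpl* had 8 UMIs in *Wtap* flox/flox and 2 in the *Wtap*-BKO-labelled library in cluster 2, a log2 ratio of -2.72 (-5.99 to -0.39), and 10 and 17 UMIs in cluster 0, a log2 ratio of 1.09 (-0.12 to 2.38). *Gatm*, *Gamt*, *Atp2a1* and *Ckmt2* had at most 12 UMIs per cluster and library, and no interval left out 0.

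**Figure D3:**
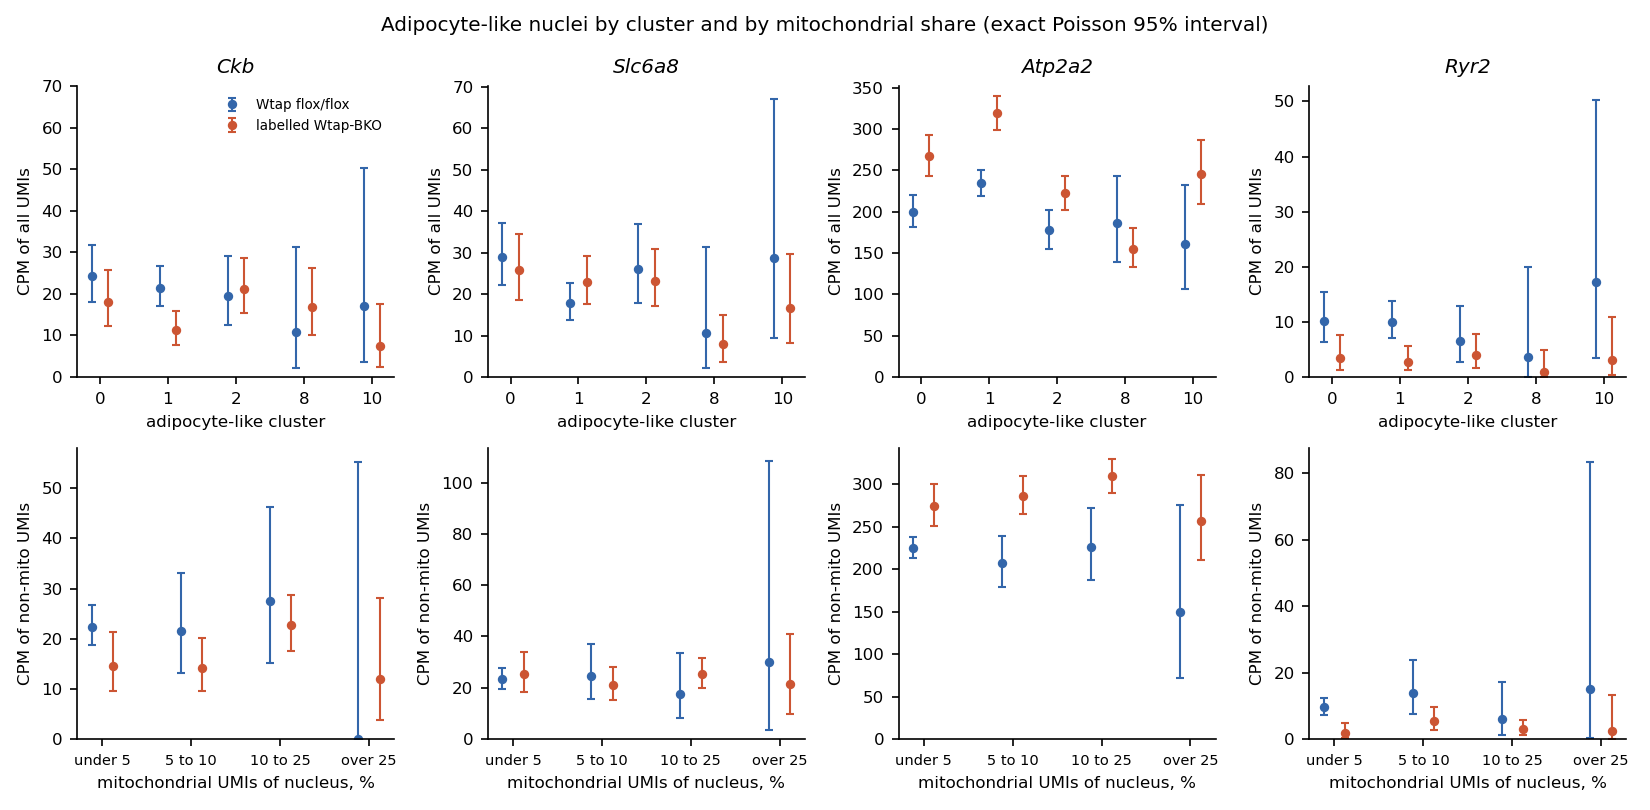
Levels of *Ckb*, *Slc6a8*, *Atp2a2* and *Ryr2* in adipocyte-like nuclei by cluster (top, CPM of all UMIs) and by the mitochondrial share of the nucleus (bottom, CPM of non-mitochondrial UMIs), in *Wtap* flox/flox (blue) and the *Wtap*-BKO-labelled library (orange), with exact Poisson 95% intervals as bars. *Atp2a2* was higher in the *Wtap*-BKO-labelled library in all clusters but 8 and in all 4 classes of mitochondrial share, and *Ryr2* was lower in all of them.

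The mitochondrial share, which differed between the libraries, was held in 4 ranges, and levels were taken as CPM of non-mitochondrial UMIs. The log2 ratio of *Atp2a2* was 0.29 (0.13 to 0.44) in adipocyte-like nuclei with under 5% mitochondrial UMIs, 0.47 (0.23 to 0.71) at 5 to 10% and 0.45 (0.17 to 0.74) at 10 to 25%. *Ryr2* had -2.50 (-4.82 to -0.88) under 5%, from 55 UMIs in *Wtap* flox/flox and 3 UMIs in the *Wtap*-BKO-labelled library, and -1.35 (-2.61 to -0.10) at 5 to 10%. *Ckb* had -0.62 under 5%, with an upper limit at about 0, -0.60 (-1.46 to 0.28) at 5 to 10% and -0.28 (-1.13 to 0.66) at 10 to 25%. The difference of *Atp2a2* was thus present in the 3 lower ranges and that of *Ryr2* in the lowest 2, and *Ryr2* at 10 to 25% had 3 and 9 UMIs and an interval that held 0. *Alpl* had -1.83 (-3.43 to -0.08) at 10 to 25%, from 6 and 10 UMIs, and 0.75 (-0.30 to 1.73) under 5%.

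The wider creatine and calcium pathways were read from 6 lists with 65 genes, of which 52 had enough UMIs in adipocyte-like nuclei. Of the 56 genes that were not among the 9, 44 met the minimum of 20 UMIs, 11 were higher in the *Wtap*-BKO-labelled library, 6 were lower and 27 were neither, beside the 25.3% and 12.2% of all genes. The median log2 ratio over the 52 genes was 0.14, against 0.07 over all genes.

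Of the creatine list, 10 of 13 genes met it, with 3 higher (*Gatm* and *Gamt* among them), 1 lower and a median of 0.04. *Slc16a12*, a creatine transporter of the monocarboxylate family, had 44 and 86 UMIs, with a log2 ratio of 0.83 (0.29 to 1.39). *Ahcy*, which clears the S-adenosylhomocysteine that GAMT produces, had 21 and 10 UMIs and -1.21 (-2.46 to -0.06). *Mat2a*, which makes S-adenosylmethionine, and the mitochondrial ATP/ADP exchangers *Slc25a4* and *Slc25a5* had 0.14, -0.21 and 0.38. The creatine kinases *Ckm* (3 and 8 UMIs) and *Ckmt1* (2 and 2 UMIs) fell below the minimum with *Ckmt2*.

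Of the SERCA pumps and their regulators, 7 of 14 met it, with 3 higher, 1 lower and a median of 0.49. *Mrln*, 1 of the 3 and of the 11 above, met the minimum only through the library where it was high. *Atp2a3*, the SERCA3 pump known from blood cells, had 25 and 126 UMIs, with a log2 ratio of 2.20 (1.57 to 2.88), and 1.23 in non-adipocyte nuclei. It stood at 96.1 and 193 CPM in T cell-like nuclei, against 3.29 and 15.1 CPM in adipocyte-like nuclei. The T cell-like class was made up differently in the libraries, as given above. *Calr*, a calcium-binding chaperone of the reticulum, had 0.86 (0.70 to 1.02), and *Asph* 0.49 (0.35 to 0.63). In non-adipocyte nuclei they had 1.07 and 0.87. *Mrln*, which encodes the SERCA inhibitor myoregulin, had 0 UMIs in *Wtap* flox/flox and 27 in the *Wtap*-BKO-labelled library. With a floor of 3 UMIs for the library at 0, it was at least 8.18-fold higher, a bound which leaves out the counting error of the 27 UMIs, and the exact conditional lower limit of its log2 ratio was 2.63. None of its UMIs lay in the 5 nuclei with muscle genes. *Srl*, which encodes sarcalumenin, was lower, with -0.75 (-0.96 to -0.54), and -0.76 in non-adipocyte nuclei. The SERCA inhibitors *Sln* and *Strit1* had 0 UMIs in adipocyte-like nuclei of both libraries, and *Pln* had 0 and 3.

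Calcium release channels and junctional proteins had 0 of 8 genes at the minimum higher and 3 lower, beside 25.3% and 12.2% of all genes, with a median of -0.18. At a limit of 2-fold, 1 of them was lower. The inositol trisphosphate receptors *Itpr2* and *Itpr1* were lower beside *Ryr2*. *Itpr2* had 1638 CPM (12444 UMIs) and 937 CPM (7836 UMIs), a log2 ratio of -0.81 (-0.85 to -0.77), and -0.84 in non-adipocyte nuclei. *Itpr1* had 624 CPM (4742 UMIs) and 394 CPM (3292 UMIs), with -0.67 (-0.73 to -0.60) in adipocyte-like and -0.09 in non-adipocyte nuclei. *Jph1*, a junctional membrane protein, *Fkbp1a*, a ryanodine receptor partner, *Ryr3* and *Itpr3* had 0.42, 0.26, 0.05 and -0.23.

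Of store-operated entry and plasma membrane export, 5 of 9 genes at the minimum were higher and 0 lower, beside 25.3% and 12.2% of all genes, with a median of 0.79 and 4 genes that were neither. The difference between the lists was not tested. *Orai2*, a pore subunit of store-operated entry, had 18 and 81 UMIs, with a log2 ratio of 2.03 (1.28 to 2.86), and 2.44 in non-adipocyte nuclei. The sodium-calcium exchanger *Slc8a1* had 58 and 166 UMIs and 1.38 (0.94 to 1.84), and the plasma membrane pump *Atp2b4* had 82 and 211 UMIs and 1.23 (0.85 to 1.61). In non-adipocyte nuclei *Slc8a1* and *Atp2b4* had 2.11 and 0.39. *Orai1* and *Orai3* were the other 2, named here after their values were seen. The calcium sensors *Stim1* and *Stim2* had -0.13 and 0.24, and the pump *Atp2b1* had -0.15.

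Several of these genes had a higher level in a class of immune nuclei of the same libraries than in adipocyte-like nuclei. *Slc8a1* had 636 and 1243 CPM in macrophage-like nuclei, against 7.63 and 19.8 CPM in adipocyte-like nuclei, and *Orai2* had 68.7 and 91.0 CPM in T cell-like nuclei, against 2.37 and 9.68 CPM. *Atp2b4* had 89.3 and 165 CPM in T cell-like nuclei, against 10.8 and 25.2 CPM, but 21.6 and 20.1 CPM in macrophage-like nuclei. In *Wtap* flox/flox, 7 and 13 of its 157 non-adipocyte UMIs lay in macrophage- and T cell-like nuclei, so most lay in other classes. In the *Wtap*-BKO-labelled library these were 38 and 161 of 362. The T cell-like class was made up differently in the libraries, as given above. In adipocyte-like nuclei, the 7 macrophage markers, all detected, summed to 64.4 and 108 CPM, and the 6 T cell markers, all detected, to 12.2 and 43.0 CPM. The part of immune RNA in the ratios of *Atp2a3*, *Orai2*, *Slc8a1* and *Atp2b4* was not tested.

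**Figure D4:**
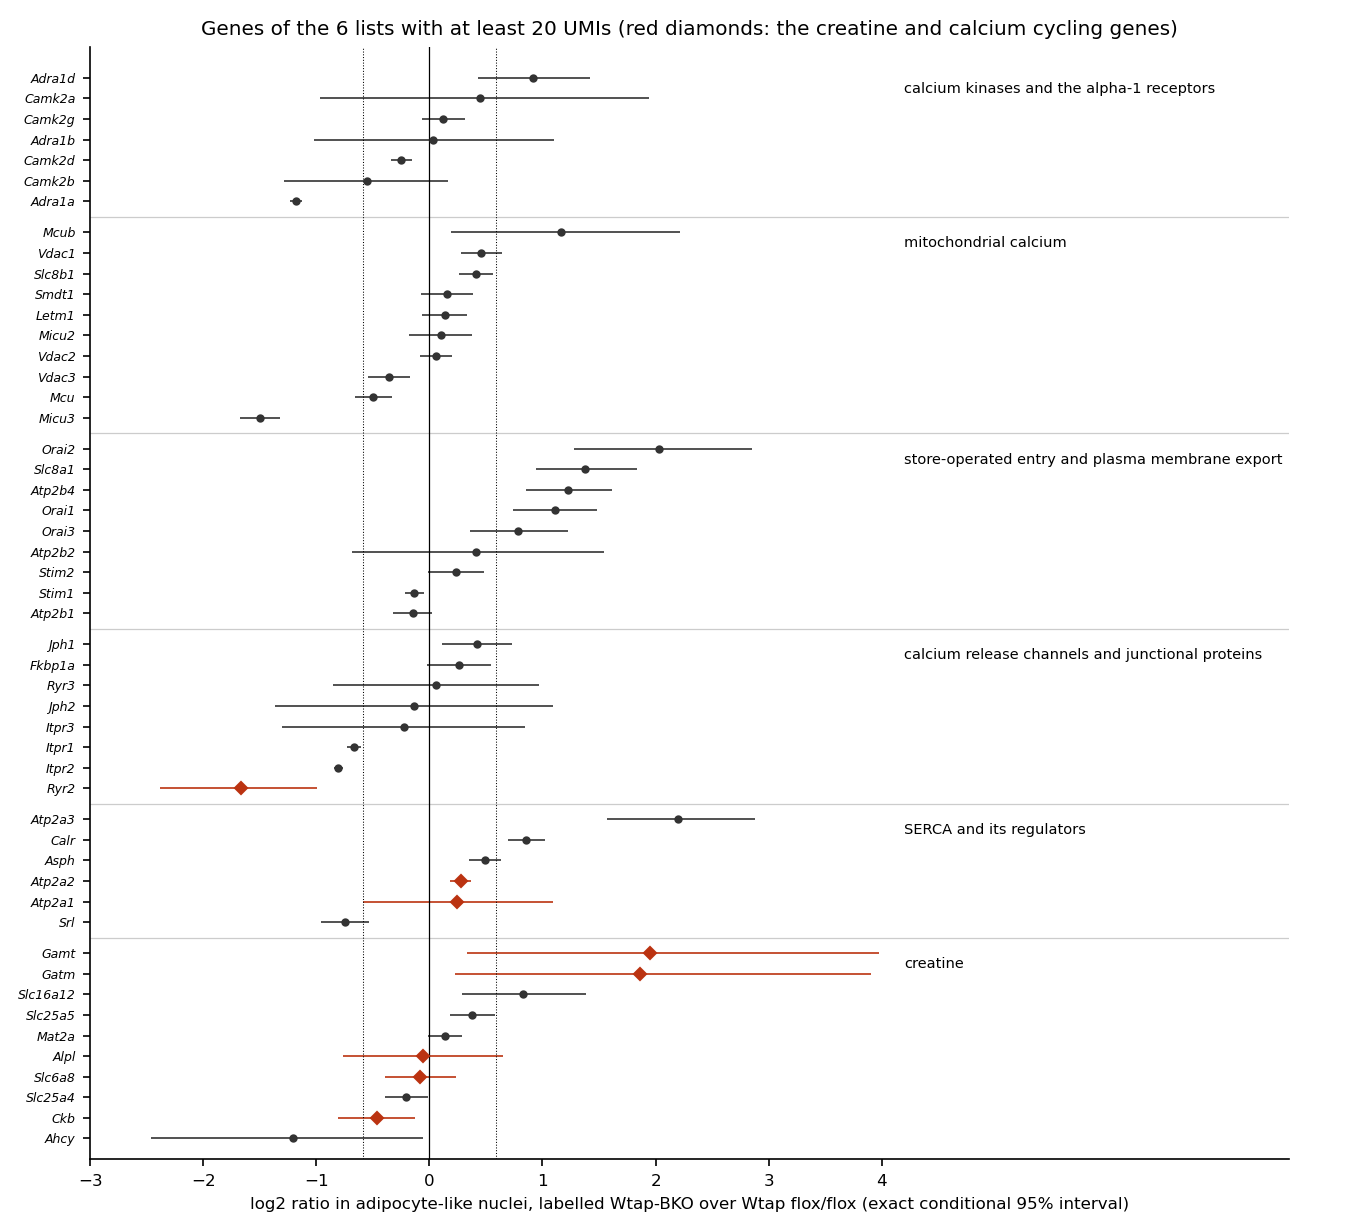
Log2 ratio in adipocyte-like nuclei of the *Wtap*-BKO-labelled to the *Wtap* flox/flox level (horizontal axis) for the genes of the 6 lists with 20 or more UMIs, ordered by value within a list, with exact conditional 95% intervals as bars, dotted lines at 1.5-fold and red diamonds for the creatine and calcium cycling genes named at the start. Release channels lay mostly at or below 0 (3 of 8 lower) and store-operated entry and export mostly above (5 of 9 higher), and *Mrln*, with 0 UMIs in *Wtap* flox/flox, and 1 mitochondrial calcium gene are not drawn.

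Mitochondrial calcium genes had 1 higher and 1 lower of 11 at the minimum, with a median of 0.10. *Micu3*, a gatekeeper of the mitochondrial calcium uniporter, had 916 and 357 UMIs, with a log2 ratio of -1.50 (-1.68 to -1.32), and -0.73 in non-adipocyte nuclei. *Mcub*, the dominant-negative pore subunit, had 13 and 32 UMIs and 1.16 (0.19 to 2.21), and it stood at 95.7 and 129 CPM in macrophage-like nuclei. The pore *Mcu* had -0.50, *Slc8b1*, the mitochondrial sodium-calcium exchanger, 0.41, and the outer membrane channel *Vdac1* 0.46. In non-adipocyte nuclei *Mcub*, *Mcu*, *Slc8b1* and *Vdac1* had 1.92, 0.56, 0.81 and -0.15.

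Among calcium kinases and alpha-1 receptors, 1 of 7 genes was higher and 1 lower, with a median of 0.03. *Adra1a*, an alpha-1 receptor that signals through calcium release, had 1167 CPM (8866 UMIs) and 516 CPM (4314 UMIs), a log2 ratio of -1.18 (-1.23 to -1.12), and -1.36 in non-adipocyte nuclei. *Adra1d* was higher, with 53 and 110 UMIs and 0.92 (0.43 to 1.42). The calcium/calmodulin kinases *Camk2b*, *Camk2d*, *Camk2g* and *Camk2a* had -0.55, -0.25, 0.12 and 0.45, and only the interval of *Camk2d* left out 0.

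Over the 7 named classes in both libraries, which give 14 points, the genes most like each of the 3 members with at least 300 UMIs were sought by Pearson's correlation of log2(CPM + 10). *Ckb* was most like *Atp6v0c* (r = 0.84), *Itm2b* (0.84) and *Creg1* (0.82). *Slc6a8* was most like *Phf24* (0.80), *Slc25a16* (0.80) and *Top1mt* (0.77), and *Atp2a2* was most like *Edc4* (0.89), *Hivep2* (0.87) and *Aox1* (0.87). The points of 1 library share its depth and free RNA, and these were the highest of 12083 genes, so the values are a description.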

How the data were processed

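The deposited values were raw UMI counts per gene and nucleus, which the authors made with Cell Ranger 5.0.0 per the file headers, and no nucleus had fewer than 500 UMIs, the minimum of the study's methods. The submitters' processing notes name mm10. How intronic reads were treated and which annotation was used are not given in the sources used here. Coordinates are RefSeq's for GRCm38.p6, the same build.

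Nuclei were clustered with Seurat 5.3.0 in R 4.3.3, on the 20 PCs and the resolution of the study's methods, which also name 8 PCs for later clustering, run as an alternative (2000 variable features without the 9 genes, the list genes, *Wtap* and *Ucp1*, canonical correlation integration, 20 PCs, resolution 0.5). Markers of 14 classes named a cluster "X-like": 3 markers, each with 10 UMIs and 2 times its level in other nuclei, or, for adipocytes, 50% of 12 markers at 1.5 times their level in named clusters. These limits, chosen with the data in view, left 1 cluster unnamed, which was counted as non-adipocyte. Doublet calls by Scrublet (scanpy 1.11.5, 7% expected) numbered 3 and 0, so its calls were not used, and removal of the highest scores (721 and 616 nuclei) was an alternative.

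UMIs were summed per class and library. With 1 library per genotype, no test was run and no p-value is given. Genes were called at 1.5-fold among those whose UMIs in both libraries summed to 20 or more. The intervals were checked on simulated data. All 9 genes are named, and of each list the 3 highest and 3 lowest other genes, except that 1 mitochondrial calcium gene is not reported here. The members and lists were chosen with earlier results of these data known. The alternatives were minima of UMIs, mitochondrial filters, scaling, clustering, doublets, the fold and UMI limits, and thinning. Removal of nuclei with muscle genes or shared barcodes was added after the data were seen.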

Additional observations from a re-analysis of the deposited data

Results flagged for a closer look

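*Ckb* had opposite signs in the classes of nuclei, with log2 ratios of the *Wtap*-BKO-labelled to the *Wtap* flox/flox level of -0.46 in adipocyte-like nuclei and 0.76 in non-adipocyte nuclei. With 1 library per genotype, the difference between these ratios was not tested. The non-adipocyte interval held 0 once nuclei past 5% mitochondrial UMIs were taken out. By adipocyte-like cluster the *Ckb* ratio ran from -1.19 to 0.64, and only the interval of cluster 1 left out 0. The macrophage-like share of nuclei was 3.16% and 13.4%, and within macrophage-like nuclei the ratio was 0.80 (95% interval 0.08 to 1.62). Of the 173 *Ckb* UMIs in macrophage-like nuclei labelled *Wtap*-BKO, 10 came from 1 nucleus. The thinned shares of macrophage-like nuclei with a *Ckb* UMI had overlapping intervals in the libraries.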

How the results depend on the processing

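No paired analysis was possible because each genotype had 1 library. Of the log2 ratios of the 9 genes in adipocyte-like nuclei, 86 values under 10 alternatives differed from the reported ones by less than the counting error and 4 by more. With nuclei of over 5% mitochondrial UMIs removed, which left 5188 and 1058 adipocyte-like nuclei, *Alpl* was at 0.73, *Atp2a1* at -0.64 and *Ryr2* at -2.51, and in non-adipocyte nuclei *Ckb* was at 0.14, *Atp2a2* at -0.062, opposite in sign, and *Ryr2* at -2.81. Mitochondrial UMIs left out of the denominator moved the median of all genes from 0.07 to 0.19 and *Atp2a2* to 0.39. Median-of-ratios scaling put *Atp2a2* in non-adipocyte nuclei at 0. At a fold of 2, 4 list genes were lower in place of 7 and 9 higher in place of 13, and the release channels had 1 lower in place of 3.

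Against macrophage- and T cell-like nuclei alone, the log2 ratio of adipocyte-like nuclei was -1.06 for *Ckb* in *Wtap* flox/flox and -2.12 in the *Wtap*-BKO-labelled library, 1.91 for *Slc6a8* in the latter, 0.54 for *Gamt* in the latter, which turned its sign, -0.89 for *Alpl* in *Wtap* flox/flox and 0.86 in the other, which also turned, and in *Wtap* flox/flox 0.15 for *Atp2a2* and -1.17 for *Ryr2*, which turned from 0.21. With nuclei of over 5% mitochondrial UMIs removed, the log2 ratio of adipocyte-like over all non-adipocyte nuclei was -1.36 for *Ckb* and -1.52 for *Atp2a1*, which turned its sign, in the *Wtap*-BKO-labelled library and 0.16 for *Atp2a2* in *Wtap* flox/flox. The cause was not tested.

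Shares of adipocyte-like nuclei with a UMI move with the number of UMIs kept by construction. At 500 UMIs they were 1.11% and 0.949% for *Ckb*, 1.18% and 0.727% for *Slc6a8*, 9.45% and 11.7% for *Atp2a2*, 0.355% and 0.242% for *Ryr2*, and 0.0808% for *Gamt* and 0.141% for *Atp2a1* in the *Wtap*-BKO-labelled library. Without thinning they were 2.40% and 2.46% for *Ckb*, and in the *Wtap*-BKO-labelled library 3.39% for *Slc6a8*, 0.303% for *Gatm*, 0.687% for *Alpl*, 31.5% for *Atp2a2* and 0.505% for *Ryr2*. *Ckmt2*, *Gatm*, *Gamt* and *Atp2a1* had the fewest UMIs of the 9 genes over both libraries, so their intervals were wide.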
